A study of Mus musculus with 10 samples.

Results

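Basal keratinocytes of the skin are riveted to the basement membrane by hemidesmosomes, and the 9 genes described here encode parts of that anchor: Col17a1, Itga6, Itgb4, Itga3, Itgb1, Lama3, Lamb3, Dst and Cd151. They were chosen by symbol as hemidesmosome, laminin-332 and basal integrin genes, and all 9 of 9 were among the 17016 gene symbols of the deposited table. The libraries came from total RNA of whole skin, 5 from quinpirole-treated and 5 from vehicle-treated BALB/c mice, all female and 10 to 11 weeks old. Both groups were made psoriasis-like with 5% imiquimod cream, a TLR7 agonist, on the shaved back once a day for 5 days. The drug, quinpirole, activates DRD2, a receptor for dopamine, and was given as 5 intraperitoneal injections during those days. Every value below is therefore from imiquimod-treated skin, and untreated skin was not analysed here.

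In a hemidesmosome, the integrin made of the Itga6 and Itgb4 chains spans the membrane beside collagen XVII, the product of Col17a1, and both bind laminin-332 outside the cell. Inside, the plakins dystonin (Dst) and plectin (Plec) tie them to the keratin filaments of Krt5 and Krt14. The integrin of Itga3 and Itgb1 also binds laminin-332 but connects to actin, and the tetraspanin Cd151 associates with both laminin-binding integrins. Inherited loss of the hemidesmosome core or of laminin-332 causes blistering of the skin in humans, and integrins that leave the basal layer are a known feature of psoriatic epidermis.

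Between quinpirole and vehicle, Col17a1 was the member with the largest difference: its mean was 48.1% higher with quinpirole, and the groups did not overlap. Itga3 lay 20.8% lower on average. For the other 7 members the means of the groups lay within 10% of each other. No member passed the test over all genes: 0 of 9 were called by limma at an adjusted p of 0.05, where 0.0206% of the 14548 genes tested were called (0.0137% with quinpirole higher, 0.00687% with quinpirole lower). EdgeR and DESeq2 on reads recovered from the table also called 0 of 9, against 0.0344% of all genes by edgeR and 1.51% by DESeq2. At an unadjusted p under 0.05 stood 2 of 9, Col17a1 and Itga3, in each of limma, edgeR and DESeq2, against 11.4%, 11.6% and 11.8% of all genes by these tools. By limma 1 of 9 was higher at that p, against 6.92% of all genes, and 1 of 9 was lower, against 4.47%. Groups did not overlap for 1 of 9 members, against 2.20% of all genes (1.34% with quinpirole higher, 0.859% with quinpirole lower). The median log2 fold change of the 9 members was -0.01, beside -0.0021 over all genes tested. Fold changes are differences in log2 of the normalised value plus 1, quinpirole minus vehicle, a scale that understates the change of genes with low values.

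The promoters of Col17a1 and Itga3 are shown because these are the members whose values lay highest and lowest with quinpirole relative to vehicle. Each window runs from 250 bases before to 50 bases after an annotated start, 5′ to 3′ on the gene's strand, from RefSeq on GRCm38.p6. The window of Col17a1 is chr19:47691993-47692292 and that of Itga3 is chr11:95076665-95076964, both on the minus strand, and the Itga3 window is 1 of 2 that RefSeq gives for that gene. Capitals mark matches, on either strand, to any of 5 motifs: AP-1 (TGANTCA), the GC box (GGGCGG), the cAMP response element (TGACGTCA), the E-box (CACGTG) and the TATA motif (TATAAA).
Col17a1: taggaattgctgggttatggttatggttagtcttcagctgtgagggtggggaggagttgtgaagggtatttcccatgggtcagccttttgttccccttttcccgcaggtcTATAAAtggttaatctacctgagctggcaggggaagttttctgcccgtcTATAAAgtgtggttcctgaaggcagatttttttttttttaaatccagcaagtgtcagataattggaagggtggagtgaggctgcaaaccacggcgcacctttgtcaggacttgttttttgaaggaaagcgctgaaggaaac
Itga3: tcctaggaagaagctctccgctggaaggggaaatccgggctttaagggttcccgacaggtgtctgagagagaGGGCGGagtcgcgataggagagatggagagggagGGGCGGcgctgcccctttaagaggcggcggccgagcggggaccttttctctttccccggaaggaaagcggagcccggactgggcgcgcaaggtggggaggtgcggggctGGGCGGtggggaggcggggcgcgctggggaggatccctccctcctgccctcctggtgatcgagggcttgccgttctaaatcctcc
The Col17a1 window had 2 TATA matches, beginning 140 and 91 bases before the start, and no GC box. TATAAA was present in 13.6% of 32851 windows of this length. Itga3 had 3 GC boxes, beginning 178, 144 and 35 bases before the start, in a window of 66.7% G and C against 46.3% for Col17a1. The GC box was present in 35.7% of all windows. The other Itga3 window, chr11:95069149-95069448, had 52.3% G and C, 1 GC box beginning 246 bases before its start and 1 AP-1 match, a motif present in 7.81% of all windows. Distances are from the RefSeq start. In GENCODE, whose gene positions are given below, both genes begin farther upstream, inside the windows printed here. A match describes letters only. Promoter windows were matched by symbol for 6 of the 9 members.

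Reads assigned to genes ranged from 6763367 to 8361877 per library, and 1 read was worth 0.119 to 0.146 CPM, the authors' normalised scale. Samples are numbered in the labels, but whether each number is its own animal is not stated, and p-values cover the spread among these libraries only. Markers of basal keratinocytes (6 of 6) and suprabasal keratinocytes (8 of 9) were in the table, and none of them was at 0 in any library. The libraries also held other tissue. The mean log2 level of 16 hair shaft genes ranged from 0.54 to 7.43 in quinpirole libraries and from 0.43 to 7.41 in vehicle libraries, with 9 of the 16 at 0 in at least 1 library. For 12 skeletal muscle genes it ranged from 5.98 to 8.08 with quinpirole and from 4.91 to 6.62 with vehicle, and none was at 0. In such bulk samples, fewer cells of a type and less RNA per cell cannot be told apart.

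Col17a1 encodes a transmembrane collagen of the hemidesmosome, also known as bullous pemphigoid antigen 180. Its mm10 position is chr19:47646344-47692094 (minus strand), and its longest coding transcript has 54 exons in GENCODE. It measured 174, 298, 198, 285 and 173 CPM in quinpirole replicates 1 to 5, against 158, 147, 158, 145 and 154 CPM in vehicle replicates 1 to 5. Every quinpirole library lay above every vehicle library, and quinpirole replicates 2 and 4 stood well above the other 3. The means were 226 ± 61.4 CPM with quinpirole and 152 ± 6.40 CPM with vehicle (SD, n = 5 each). The log2 fold change was 0.52 with SE 0.16 (95% interval 0.18 to 0.86, limma adjusted p = 0.239). By edgeR the adjusted p was 0.226 and by DESeq2 0.0525, so no tool run here called it. Without quinpirole replicates 2 and 4 the mean of the other 3 was 182 ± 14.2 CPM, 1.19 times that of vehicle, with values between 173 and 198 CPM.

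**Figure D1:**
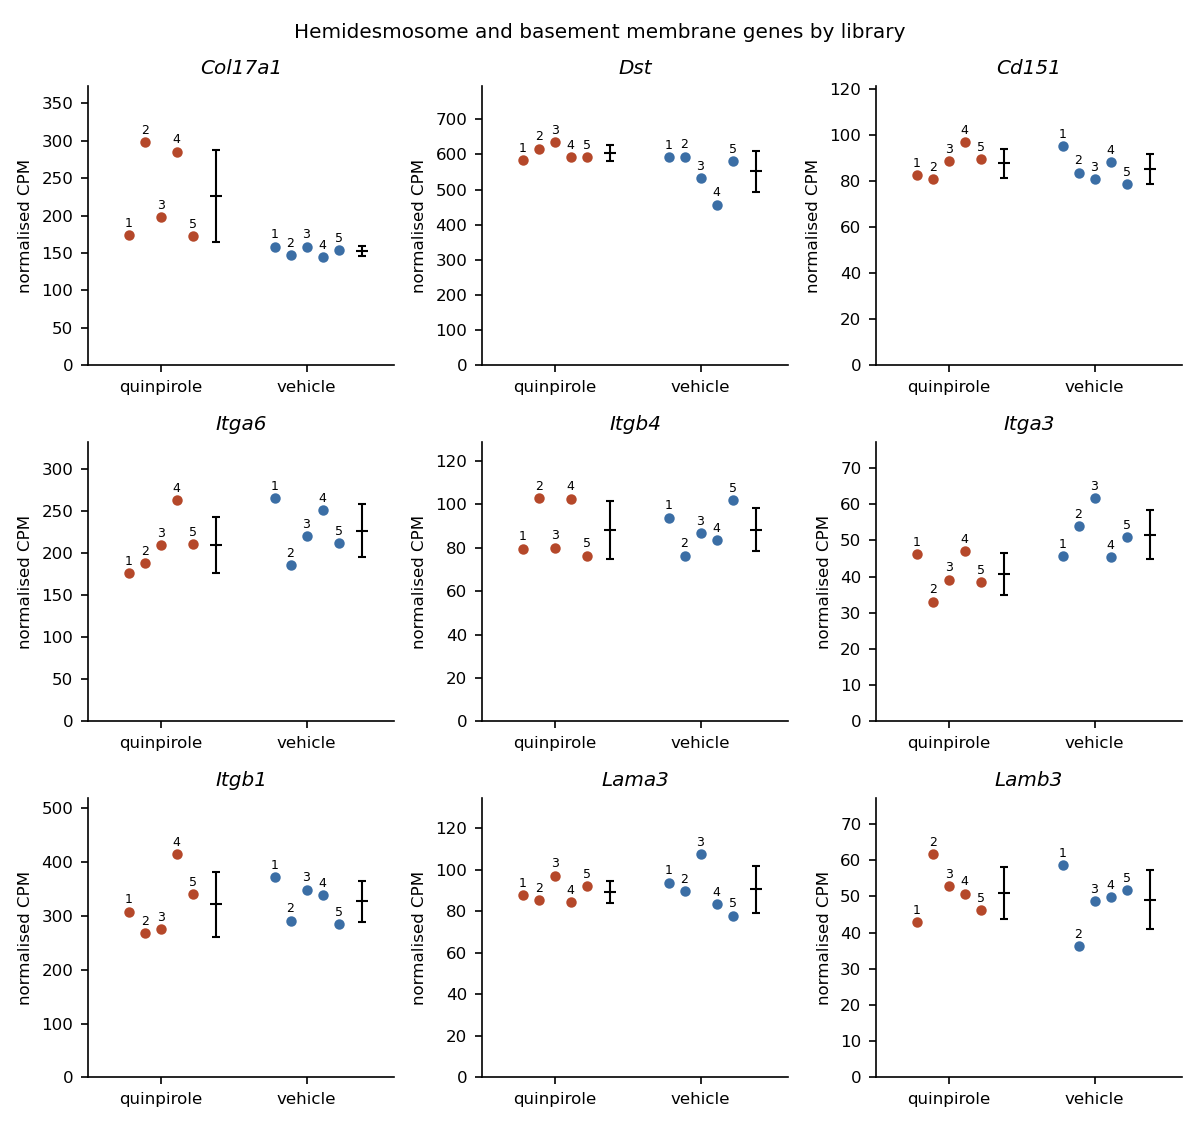
Normalised CPM (vertical axes, from 0) of the 9 genes in 5 quinpirole libraries (left, red) and 5 vehicle libraries (right, blue). Numbers are replicates and black bars are mean ± SD. Col17a1 is the single gene whose groups do not overlap.

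Both libraries with the highest Col17a1 had almost no hair shaft RNA. The hair shaft list had a mean log2 level of 0.63 and 0.54 in quinpirole replicates 2 and 4. A vehicle library with as little, replicate 5 at 0.43, had 154 CPM of Col17a1. The remaining quinpirole libraries had hair levels of 3.64 to 7.43 and the remaining vehicle libraries 4.40 to 7.41, and among these Col17a1 lay between 173 and 198 CPM with quinpirole and between 145 and 158 CPM with vehicle. With mean hair shaft level as a covariate, the log2 fold change of Col17a1 was 0.43 (limma adjusted p = 0.268). With the skeletal muscle list mean as a covariate it was 0.43 (limma adjusted p = 0.617), and Col17a1 no longer had an unadjusted p under 0.05. The muscle list tended to lie higher with quinpirole, so muscle level and treatment are hard to separate in this fit. All 6 sebaceous gland markers also had higher values with quinpirole, 0 called and 5 at an unadjusted p under 0.05. By limma 6.92% of all genes tested were higher at that p. The sebaceous markers summed to 1150 to 1838 CPM with quinpirole and 584 to 1146 CPM with vehicle. The part of hair, muscle and sebaceous tissue in the Col17a1 values was not tested.

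**Figure D2:**
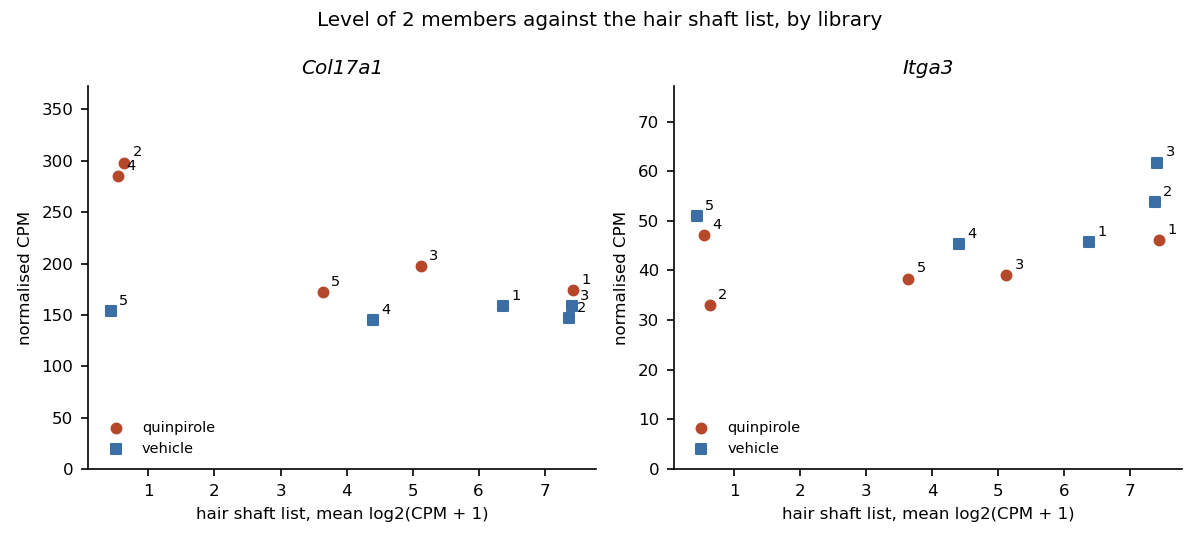
Normalised CPM (vertical axes, from 0) of Col17a1 (left) and Itga3 (right) against the mean log2(CPM + 1) of 16 hair shaft genes, for quinpirole (red circles) and vehicle libraries (blue squares), numbered by replicate. At the low end of hair RNA, quinpirole replicates 2 and 4 have 298 and 285 CPM of Col17a1 and vehicle replicate 5 has 154 CPM.

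Itga3 encodes the alpha chain that pairs with the Itgb1 product to form a laminin-binding integrin outside the hemidesmosome. Its mm10 position is chr11:95044474-95076801 (minus strand). Its values were 46.1, 33.1, 39.1, 47.1 and 38.4 CPM in quinpirole replicates 1 to 5, against 45.6, 53.8, 61.7, 45.3 and 50.9 CPM in vehicle replicates 1 to 5. The groups overlapped: 3 of 5 quinpirole libraries lay below the lowest vehicle library, and the other 2 lay beside vehicle replicates 1 and 4. Means were 40.7 ± 5.84 CPM with quinpirole and 51.5 ± 6.76 CPM with vehicle (SD, n = 5 each). The log2 fold change was -0.33 with SE 0.12 (95% interval -0.59 to -0.07, limma adjusted p = 0.316). With the hair covariate it was -0.29 and with the muscle covariate -0.44 (limma adjusted p = 0.389 and 0.465).

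Its partner Itgb1, the common beta chain of many integrins in nearly all cell types of skin, had the highest level per length of the 9 members (mm10 chr8:128685654-128733200, plus strand). Itgb1 measured 308, 268, 275, 415 and 340 CPM in quinpirole replicates 1 to 5, against 372, 291, 349, 339 and 285 CPM in vehicle replicates 1 to 5. Quinpirole replicate 4 was the highest and quinpirole replicate 2 the lowest of all 10, so the quinpirole libraries enclosed the vehicle range. The log2 fold change was -0.04 (95% interval -0.32 to 0.25, limma adjusted p = 0.944).

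The hemidesmosomal integrin chains showed no shift between the groups beyond their spread. Itga6 is at mm10 chr2:71745616-71858416 and Itgb4 at chr11:115974709-116008412, both on the plus strand. Itga6, the alpha chain, measured 177, 189, 210, 263 and 211 CPM in quinpirole replicates 1 to 5, and 266, 186, 221, 252 and 212 CPM in vehicle replicates 1 to 5. Itgb4, the beta chain with the long cytoplasmic tail that contacts plectin, measured 79.6, 103, 80.0, 103 and 76.3 CPM in quinpirole replicates 1 to 5, and 93.8, 76.3, 86.6, 83.3 and 102 CPM in vehicle replicates 1 to 5. The groups spanned nearly the same range for each of the pair. For Itga6 the log2 fold change was -0.12 (95% interval -0.39 to 0.16, limma adjusted p = 0.771), and for Itgb4 -0.01 (95% interval -0.26 to 0.24, limma adjusted p = 0.990). On the fold scale the interval for Itgb4 runs from 0.838 to 1.18. Quinpirole replicates 2 and 4, the highest for Col17a1, were also the highest for Itgb4, but vehicle replicate 5 lay beside them at 102 CPM.

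Laminin-332 is the ligand of both integrins and includes the chains of Lama3 and Lamb3 (mm10 chr1:193207699-193343878, plus strand). Lama3 measured 87.7, 85.2, 97.0, 84.3 and 92.1 CPM in quinpirole replicates 1 to 5, and 93.8, 89.6, 108, 83.5 and 77.9 CPM in vehicle replicates 1 to 5. Lamb3 measured 42.8, 61.8, 52.9, 50.7 and 46.2 CPM in quinpirole replicates 1 to 5, and 58.7, 36.3, 48.7, 49.8 and 51.7 CPM in vehicle replicates 1 to 5. Quinpirole values of Lama3 lay within the vehicle range, and those of Lamb3 overlapped it, with quinpirole replicate 2 the highest of the 10. The log2 fold changes were -0.01 for Lama3 (95% interval -0.22 to 0.19) and 0.06 for Lamb3 (95% interval -0.23 to 0.35), with limma adjusted p of 0.974 and 0.908.

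Dst had the most reads of the 9 members, and the gene-level value sums its isoforms (mm10 chr1:33908225-34308661, plus strand). Dystonin has an epithelial form, BP230, and longer neuronal and muscle forms, and GENCODE lists 20 transcripts of the gene, 14 of them protein coding, which these values do not separate. Its values were 583, 616, 636, 592 and 593 CPM in quinpirole replicates 1 to 5, against 592, 594, 533, 457 and 581 CPM in vehicle replicates 1 to 5. The quinpirole libraries lay close together, 2 of 5 above the highest vehicle library and the other 3 beside the upper vehicle values, and vehicle replicate 4 was the lowest of the 10. The log2 fold change was 0.14 (95% interval -0.07 to 0.35, limma adjusted p = 0.625), and 0.07 without vehicle replicate 4. Plec, the other plakin of the plaque, was lowest in the same library, at 434 CPM against 542 to 555 CPM in the other vehicle libraries and 549 to 641 CPM with quinpirole. Its log2 fold change was 0.18 (limma adjusted p = 0.498), and 0.11 without vehicle replicate 4. Other cells that express plakins were in the samples. The 12 skeletal muscle markers, all with higher values under quinpirole, 0 called and 9 at an unadjusted p under 0.05, summed to 1050 to 5181 CPM with quinpirole and 502 to 1871 CPM with vehicle. The 6 Schwann cell markers, all with higher values, 0 called and 1 at an unadjusted p under 0.05, summed to 44.0 to 57.5 CPM with quinpirole and 40.8 to 49.4 CPM with vehicle. By limma 6.92% of all genes tested were higher at that p. The part of muscle and Schwann cells in the Dst and Plec values was not tested.

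Cd151 (mm10 chr7:141467392-141471473, plus strand) varied least of the 9, with a coefficient of variation of 7.22% over the 10 libraries against 29.9% for Col17a1. It measured 82.7, 81.0, 88.7, 97.2 and 89.6 CPM in quinpirole replicates 1 to 5, and 95.2, 83.7, 80.9, 88.2 and 78.7 CPM in vehicle replicates 1 to 5. The groups overlapped over almost their whole range. The log2 fold change was 0.04 (95% interval -0.14 to 0.22, limma adjusted p = 0.888), which is 0.910 to 1.16 on the fold scale.

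**Figure D3:**
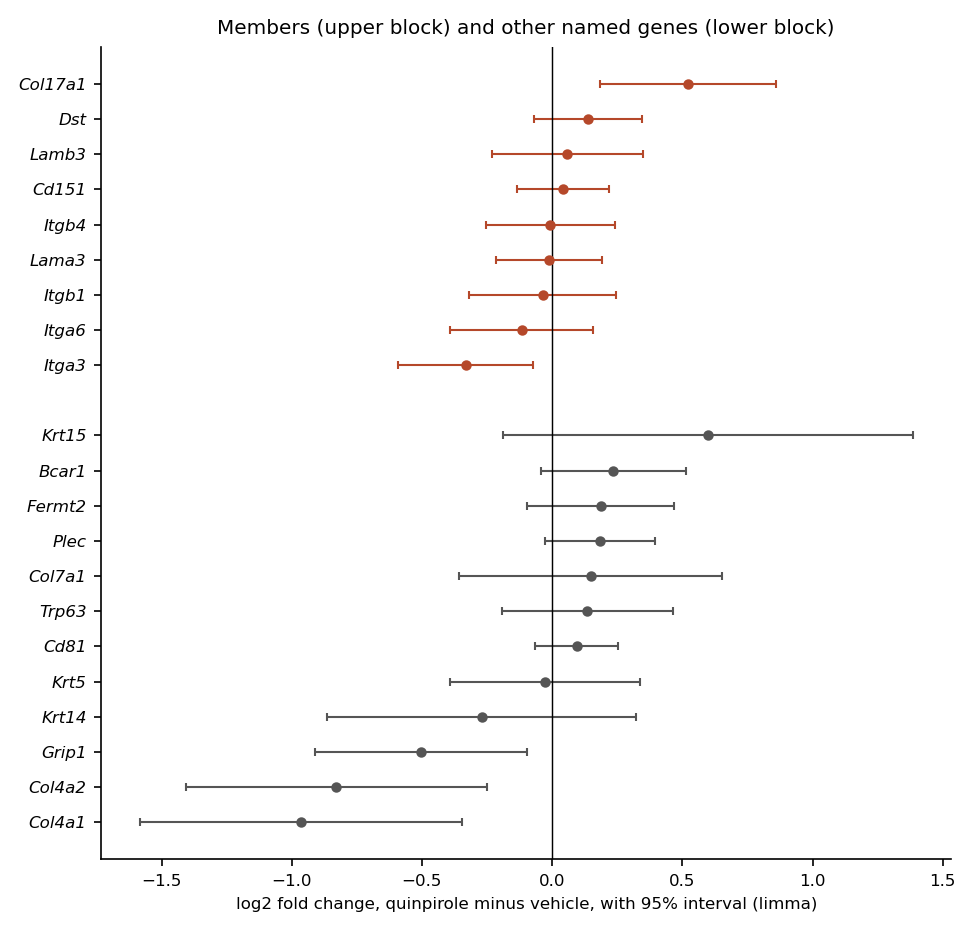
Log2 fold change, quinpirole minus vehicle, with 95% interval from limma, for the 9 members (upper block, red) and other named genes (lower block, grey). The intervals of Col17a1, Itga3, Grip1, Col4a2 and Col4a1 leave out 0 before adjustment, and none of the genes shown passes the adjusted threshold.

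Levels were compared between genes per kilobase of the longest coding transcript. In quinpirole libraries Itgb1 was highest at 84.2 ± 15.6 CPM per kilobase, then Itga6 at 48.7 ± 7.68, Cd151 at 47.1 ± 3.44, Col17a1 at 40.4 ± 11.0 and Dst at 25.9 ± 0.922 (SD, n = 5). Itgb4 followed at 14.2 ± 2.14, Lamb3 at 10.5 ± 1.48, Lama3 at 8.46 ± 0.502 and Itga3 at 8.38 ± 1.20 CPM per kilobase. In vehicle libraries the order was the same down to Itgb4, with Col17a1 at 27.3 ± 1.15, close to Dst at 23.7 ± 2.51 CPM per kilobase. Below them stood Itga3 at 10.6 ± 1.39, Lamb3 at 10.1 ± 1.67 and Lama3 at 8.58 ± 1.07 CPM per kilobase. Neighbours that did not differ beyond their spread were Itga6 and Cd151 in both groups, Cd151 and Col17a1 in quinpirole libraries, and in both groups Itga3, Lamb3 and Lama3, so Itga3 held the last place of 9 with quinpirole and place 7 with vehicle within that spread. The order depends on the length used. For Dst the longest coding transcript has 23.3 kilobases, and the epithelial form BP230 is shorter than the neuronal and muscle forms. Its value per kilobase may therefore be understated for keratinocytes, and all annotated exons give a longer length still. Per kilobase of all annotated exons Itga6 was 4th of 9 in both groups, and Col17a1 was 2nd of 9 with quinpirole and 3rd of 9 with vehicle. For scale, the filament partner Krt14 stood at 4567 ± 1356 CPM per kilobase of transcript with quinpirole and 5459 ± 1372 with vehicle, and Krt5 at 1383 ± 201 with quinpirole and 1412 ± 215 with vehicle.

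Ratios within a library do not depend on how the library was scaled. Col17a1 to Itgb4, both of the hemidesmosome core, was 2.19, 2.90, 2.47, 2.78 and 2.26 in quinpirole replicates 1 to 5, against 1.69, 1.92, 1.83, 1.74 and 1.51 in vehicle replicates 1 to 5. These ratios did not overlap between the groups. The mean log2 ratio was 1.32 ± 0.178 with quinpirole and 0.792 ± 0.131 with vehicle (SD, n = 5 each). Col17a1 alone did not overlap either and the Itgb4 means were nearly equal, so this ratio largely repeats the Col17a1 difference. Itgb4 to Itga6, the chains of 1 integrin, ranged from 0.361 to 0.546 in quinpirole libraries and from 0.331 to 0.480 in vehicle libraries. Lamb3 to Lama3 ranged from 0.488 to 0.725 with quinpirole and from 0.405 to 0.664 with vehicle. Both of these pairs overlapped over most of their range. Itgb1 to Itga3 ranged from 6.68 to 8.86 with quinpirole and from 5.41 to 8.15 with vehicle, and Itga3 to Itga6 from 0.175 to 0.261 with quinpirole and from 0.171 to 0.290 with vehicle. They overlapped as well. Against the basal keratin Krt14, all 9 members overlapped between the groups, Col17a1 included: its ratio to Krt14 ranged from 0.0175 to 0.0492 with quinpirole and from 0.0111 to 0.0221 with vehicle. The ratios are descriptions, with no test, and the share of all gene pairs that do not overlap was not computed.

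**Figure D4:**
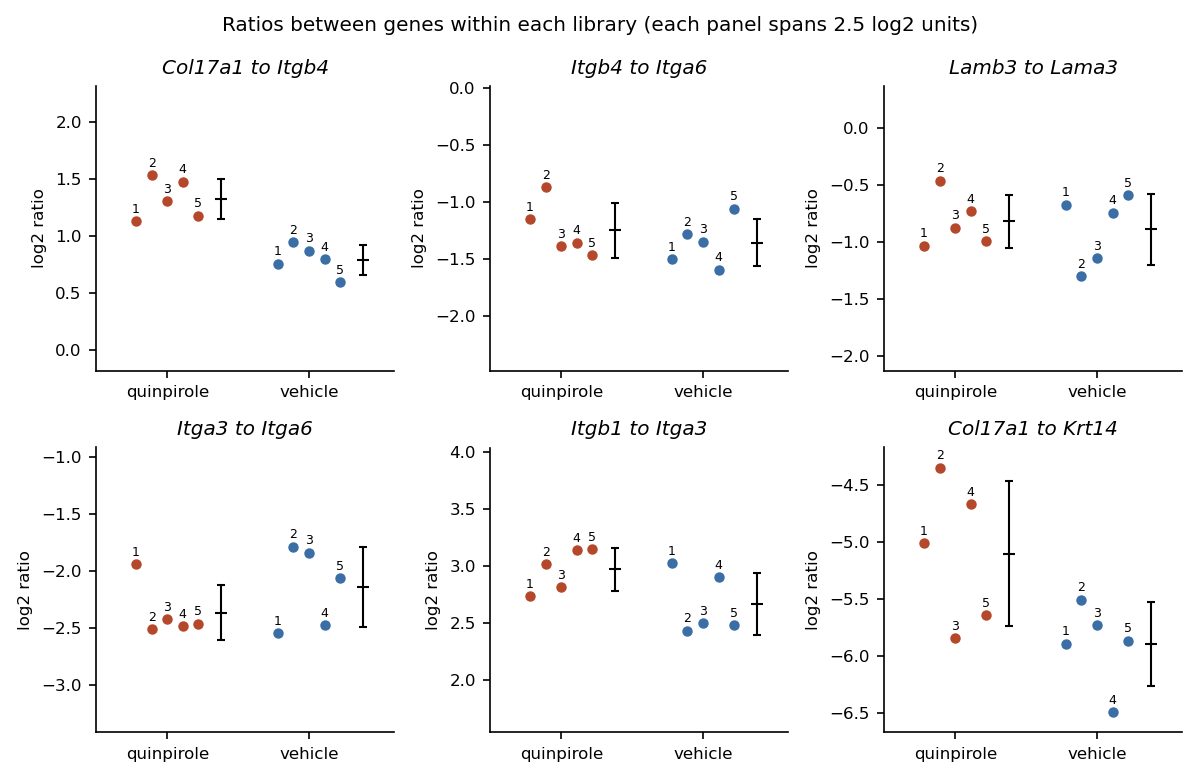
Log2 ratio of 6 gene pairs within each library for quinpirole (left, red) and vehicle (right, blue), numbered by replicate, with mean ± SD in black, and each panel spanning the same height. Col17a1 to Itgb4 does not overlap between the groups, at 1.13 to 1.53 with quinpirole and 0.595 to 0.942 with vehicle, and the other pairs overlap. The values of Col17a1 alone do not overlap either.

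The members did not share 1 pattern across the 10 libraries. Quinpirole replicate 2 had the highest value of 3 members (Col17a1, Itgb4 and Lamb3) and the lowest of 2 (Itga3 and Itgb1). Quinpirole replicate 4 was highest for Itgb1 and Cd151, and vehicle replicate 3 for Itga3 and Lama3. Vehicle replicates 2, 4 and 5 each had the lowest value of 2 members. Of 11367 genes outside the lists with a mean of at least 5 CPM, those whose log2 level followed the mean standardised profile of the members most closely were Dnajc25, Mfsd6, Coro1b, Wasf2 and Arfgef1. Pearson's r over the 10 libraries was between 0.889 and 0.959, as a description. These are the highest of 11367 values over only 10 libraries, where high values also arise by chance. All genes of a library share its depth and tissue make-up, and tissue make-up differed between libraries.

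**Figure D5:**
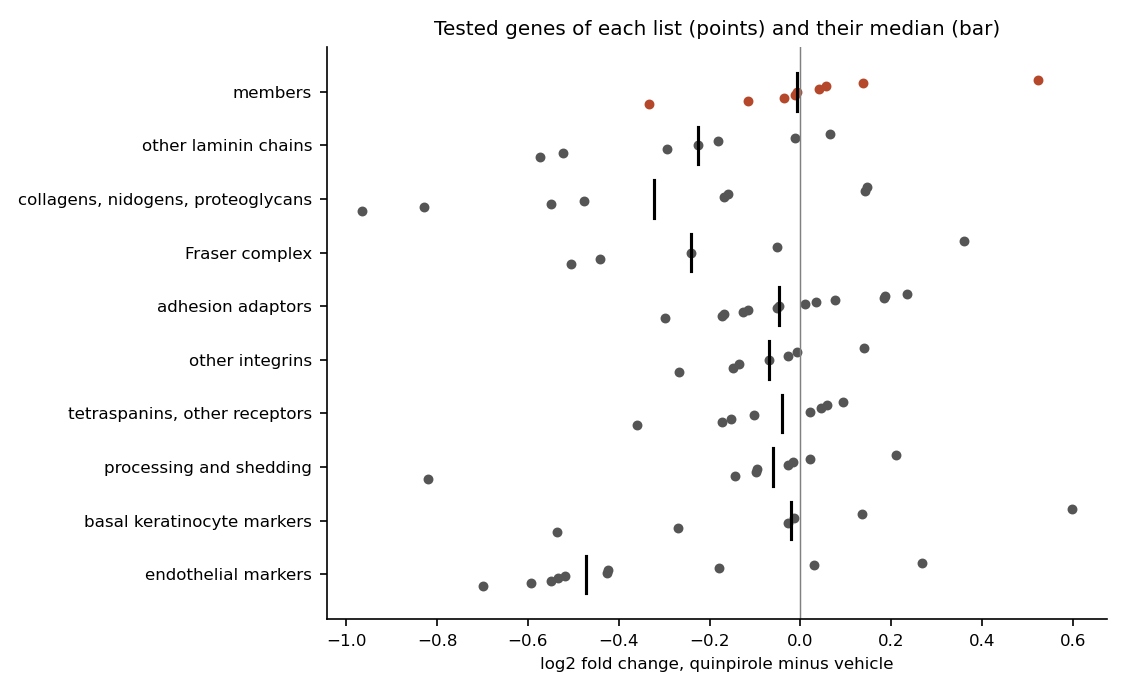
Log2 fold change, quinpirole minus vehicle, of each tested gene (points) in the 9 members, 7 groups of other basement membrane zone genes, and basal keratinocyte and endothelial marker lists. The row labelled Fraser complex also holds Npnt and Grip1. Black bars are medians: -0.01 for the members, -0.32 for collagens, nidogens and proteoglycans, and -0.47 for the endothelial markers.

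Of the other basement membrane zone genes, 57 were listed and 56 tested, and limma called 0 of them higher and 0 lower. EdgeR and DESeq2 called 0 as well. At an unadjusted p under 0.05 by limma stood 7 genes, all lower: Col4a1, Col4a2, Nid1, Grip1, Bcam, Mmp9 and Lamb1, named after their values were seen except for Col4a1, Col4a2 and Grip1. EdgeR had 6 and DESeq2 7 below that p. The 7 of 56 stand beside 11.4% of all genes in either direction and 4.47% with quinpirole lower. Leaving out quinpirole replicate 1 gave 12 such genes, and leaving out vehicle replicate 5 gave 11. There were 4 without quinpirole replicate 2, and 4 without vehicle replicate 1, 2 or 3 in turn, and 3 with the muscle covariate. The median log2 fold change of the 56 was -0.10, with 17 higher and 39 lower, beside 7215 higher and 7333 lower over all genes tested. By role, the median was -0.23 for 7 other laminin chains, -0.32 for 8 collagens, nidogens and proteoglycans, and -0.05 for 13 adhesion adaptors. It was -0.24 for a list of 5, the Fraser complex genes Fras1, Frem1 and Frem2 with Npnt and Grip1. Within that list Fras1 was at -0.44, Frem1 at -0.05, Frem2 at 0.36, Npnt at -0.24 and Grip1 at -0.50. The median was -0.07 for 7 other integrins, -0.04 for 8 tetraspanins and other receptors, and -0.06 for 8 genes of processing and shedding. The laminin, collagen and Fraser lists had their lowest mean log2 levels in quinpirole replicates 2 and 4 and vehicle replicate 5. Those libraries had the least hair shaft RNA. In that order the levels were 6.17, 6.08 and 6.33 for the laminin list and 5.17, 4.86 and 5.40 for the collagen list. For the Fraser list they were 3.64, 2.99 and 3.02. The other role lists did not have these libraries as their lowest. The part of hair follicles was not tested.

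Collagen IV, the network collagen of all basement membranes, had the smallest p in that list. Col4a1 measured 263, 87.7, 170, 96.9 and 184 CPM in quinpirole replicates 1 to 5, against 352, 358, 315, 257 and 197 CPM in vehicle replicates 1 to 5. Col4a2 measured 132, 50.2, 90.2, 53.4 and 103 CPM in quinpirole replicates 1 to 5, against 193, 172, 140, 129 and 100 CPM in vehicle replicates 1 to 5. In both genes quinpirole replicates 2 and 4, the libraries highest for Col17a1, were the lowest of the 10. Both libraries had almost no hair shaft RNA. Vehicle replicate 5, with as little, was the lowest vehicle library in both genes and had 154 CPM of Col17a1. The groups overlapped, since quinpirole replicate 1 lay above vehicle replicates 4 and 5 in both genes. Log2 fold changes were -0.97 with SE 0.28 for Col4a1 (limma adjusted p = 0.237) and -0.83 with SE 0.27 for Col4a2 (limma adjusted p = 0.268). These genes lie head to head on chromosome 8, and their promoter windows share 78 bases, chr8:11312777-11312854.

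Collagen IV also comes from vessels, and endothelial markers lay lower too. Of 10 endothelial markers, 8 had lower values with quinpirole, 0 were called and 4 had a limma p under 0.05, with a median log2 fold change of -0.47. Of all genes tested, 4.47% were lower at that p. The summed level of the endothelial markers was 143 to 266 CPM with quinpirole and 169 to 344 CPM with vehicle, and none was at 0. With the endothelial list mean as a covariate the log2 fold change was -0.92 for Col4a1 and -0.71 for Col4a2 (limma adjusted p = 0.326 and 0.405), and that of Col17a1 was 0.42 (0.386). With the hair covariate it was -0.68 for Col4a1 and -0.57 for Col4a2 (limma adjusted p = 0.0908 and 0.163). With the muscle covariate it was -0.67 for Col4a1 and -0.55 for Col4a2 (limma adjusted p = 0.667 and 0.726), and neither stayed at an unadjusted p under 0.05. The muscle list lay higher and most endothelial markers lower with quinpirole, so these fits do not cleanly separate tissue content from treatment. The part of vessels, follicles and muscle in these values was not tested.

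Other named genes of the anchor did not pass the test. Col7a1, the anchoring fibril collagen below the basement membrane, measured 60.8, 89.7, 68.7, 28.7 and 59.9 CPM in quinpirole replicates 1 to 5, against 51.2, 50.7, 51.1, 48.9 and 59.6 CPM in vehicle replicates 1 to 5. Quinpirole replicates 1, 2, 3 and 5 lay above every vehicle library and quinpirole replicate 4 below them all. Its log2 fold change was 0.15 (limma adjusted p = 0.851), and 0.39 without quinpirole replicate 4 and -0.01 without quinpirole replicate 2. Grip1, a scaffold that sorts Fraser complex proteins, averaged 7.25 ± 2.07 CPM with quinpirole and 10.6 ± 1.98 CPM with vehicle (SD, n = 5 each; log2 fold change -0.50, limma adjusted p = 0.330). With the muscle covariate its log2 fold change was -0.16 (limma adjusted p = 0.889). Muscle level and treatment are hard to separate in that fit. On the higher side stood the adaptor Bcar1 at 0.24, the kindlin Fermt2 at 0.19 and the tetraspanin Cd81 at 0.09, with limma adjusted p between 0.506 and 0.673.

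Basal keratinocyte genes give the cell type that carries hemidesmosomes. Krt5 averaged 3039 ± 441 CPM with quinpirole and 3103 ± 472 CPM with vehicle (SD, n = 5 each; log2 fold change -0.03), and Krt14 averaged 7755 ± 2303 CPM with quinpirole and 9269 ± 2330 CPM with vehicle (-0.27). Trp63, the transcription factor of the basal layer, had a log2 fold change of 0.14, and Krt15, a keratin of basal and follicle stem cells, 0.60 with SE 0.36. The Krt15 value ranged from 0.10 with the endothelial covariate to 1.41 with the muscle covariate, and was 0.33 without vehicle replicate 5. Of the other 2 basal markers, named after their values were seen, Dlk2 had a log2 fold change of -0.01. The adhesion gene Cdh3 averaged 62.3 ± 19.0 CPM with quinpirole and 88.6 ± 16.5 CPM with vehicle (SD, n = 5 each; log2 fold change -0.54, limma adjusted p = 0.332), and was the 1 basal marker at an unadjusted p under 0.05. Limma called 0 of the 6, with adjusted p between 0.332 and 0.989. Over the 6 basal markers the median log2 fold change was -0.02, and with their mean as a covariate that of Col17a1 was 0.54 (limma adjusted p = 0.284). The summed level of the basal markers was 8891 to 15331 CPM with quinpirole and 9829 to 17298 CPM with vehicle.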

How the data were processed

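Whole-skin RNA was depleted of ribosomal RNA and made into directional libraries, per the labels' protocols. Per the submitters' processing notes the tools were Trimmomatic 0.38, Bowtie2, RSEM 1.3.0 and edgeR and the build mm10; the part each played is not recorded there. Which annotation and gene filter were used, and whether counting used strand, is not given in the sources used here. Exons of Itgb4, Lama3, Dst and Cd151 overlap genes on the opposite strand in GENCODE, none of them in the table.

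The deposited table holds a normalised signal for 17016 symbols in 10 libraries. Dividing each column by its smallest value gave whole reads, within 1e-06 of a read, for 100% of values. The deposited values equal CPM on TMM-scaled library sizes, within 1.11e-16, as recomputed from those reads. Intervals and tests cover the spread between libraries. No pair of libraries in a group was a repeat (chi-square per gene at least 6.23, where sampling noise gives about 1).

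Genes reaching 1 CPM in at least 5 libraries (14548) were tested in log2(CPM + 1) with limma 3.58.1 with a trend, two-sided, in R 4.3.3. Benjamini-Hochberg adjustment ran over all genes tested, with calls at 0.05. Limma and edgeR were also run on simulated counts with changes larger than those of any member. That run does not show how often changes as small as these would be called. EdgeR 4.0.16 and DESeq2 1.42.0 on recovered reads, other pseudocounts, filters, scalings, covariates, a replicate block and leaving out each library were alternatives. An endothelial covariate and leaving out both libraries numbered 4 were added after seeing the data.

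The members and lists were chosen with earlier results of these data known. Named beside the members were Col7a1 and Plec, up to 3 more listed genes per direction by smallest p, 4 basal keratinocyte genes, and the 5 genes most like the members. Exceptions are named as such, and 1 gene of the rule is not reported here. Figures were drawn with matplotlib 3.10.9.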

Additional observations from a re-analysis of the deposited data

Results flagged for a closer look

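Values far from the other 4 libraries of their group, by Dixon's test at the 95% level, were looked for in 42 gene and group pairs, of which chance flags about 1 in 20. None of the 9 members was among those found. Plec was low in vehicle replicate 4, at 434 CPM against 542 to 555 CPM in the other vehicle libraries. Trp63 was high in quinpirole replicate 4, at 652 CPM against 369 to 415 CPM in the other quinpirole libraries, and its log2 fold change was -0.01 without that library. Fermt2 was low in quinpirole replicate 2, at 25.8 CPM against 33.5 to 35.7 CPM in the other quinpirole libraries. Col7a1 was high in vehicle replicate 5, at 59.6 CPM against 48.9 to 51.2 CPM in the other vehicle libraries.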

How the results depend on the processing

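Under all 25 alternatives 0 of 9 members and 0 of the other basement membrane zone genes were called. The members' median log2 fold change lay between -0.04 and 0.03. Col17a1 stayed positive in each, from 0.41 to 0.61 (adjusted p 0.0525 to 0.617), and Itga3 negative, from -0.44 to -0.26 (0.233 to 0.545). The replicate block gave 0 calls over all genes, and Col17a1 had an adjusted p of 0.299 under it. Deviations of same-numbered libraries had r from -0.238 to 0.220, over 0.1 in 3 of 5 pairs, and 0 of 5 quinpirole and 1 of 5 vehicle libraries correlated best with their own number, so the numbers were not used as a pairing.

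Signs turned mostly for genes near 0, and the cause was not tested. Col7a1 and Trp63, at 0.15 and 0.14 with all libraries, turned only without quinpirole replicate 2 and only without quinpirole replicate 4, respectively. With the hair covariate Lama3 was at 0.0426 and Lamb3 at -0.00929. With the muscle covariate Lamb3 was at -0.0152 and Cd151 at -0.00855. With the endothelial covariate Itgb1 was at 0.00837 and Krt5 at 0.0830, and Krt5 was at 0.104 by quantile normalization. Leaving out single libraries gave ranges of -0.0648 to 0.0453 for Itgb4, -0.133 to 0.0236 for Itgb1, -0.0636 to 0.0516 for Lama3, -0.0446 to 0.125 for Lamb3, -0.107 to 0.0387 for Krt5, -0.00835 to 0.394 for Col7a1 and -0.0135 to 0.191 for Trp63.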

Other observations

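Marker lists of other cells, described by limma values, had 0 calls each, and at an unadjusted p under 0.05 stood 2 fibroblast, 1 adipocyte, 1 suprabasal keratinocyte, 5 sebaceous, 0 immune, 0 melanocyte and 0 hair shaft genes. Over all genes tested 6.92% were higher and 4.47% lower at that p. Of 7 fibroblast markers 4 were higher and 3 lower with quinpirole (median log2 fold change 0.22), of 6 adipocyte markers 2 were higher and 4 lower (-0.06), of 5 immune markers 4 were higher and 1 lower (0.13), and of 5 melanocyte markers 0 were higher and 5 lower (-0.85). Suprabasal keratinocyte markers, 6 higher and 2 lower of 8 tested, had a median of 0.18. The 16 hair shaft genes all had lower values, with a median of -1.70, and the 6 sebaceous markers all had higher values, with a median of 0.77.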
